A study of Mus musculus with 12 samples.

Results

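YAP (gene Yap1) and its relative TAZ (gene Wwtr1) are coactivators that bind no DNA themselves and switch on genes through TEAD transcription factors such as Tead1. The Hippo kinase cascade, which ends in Lats1 and Lats2, phosphorylates both proteins and keeps them out of the nucleus, whereas cell spreading, actin tension and loss of cell contacts release them. In the liver the pathway is known for its part in organ size, regeneration and the bile duct lineage.

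The 10 genes described here were taken by name from the 32285 genes of the count matrices, as known genes of this pathway. They are the coactivators Yap1 and Wwtr1, the factor Tead1, the pathway regulators Lats2, Amotl2 and Ajuba, and the target genes Ccn1, Ccn2, Ankrd1 and Axl. Amotl2 and Lats2 are themselves known YAP targets. Single nuclei were sequenced from 8 wild-type mice of 10 to 12 weeks, labelled C57BL6J (the study's methods give C57BL/6NTac), and each mouse gave 3 samples. Liver is a piece of the median lobe that was tied off and frozen once blood had been rinsed out, before collagenase entered. Cell Suspension is the washed pellet of cells that collagenase released from the rest of the same liver, and Primary Hepatocytes are such cells after 24 hours on collagen, lifted with trypsin before freezing. The cultures were plated in serum and then kept in medium with dexamethasone and insulin, which the other types did not receive, so attachment, medium, trypsin and time in culture cannot be told apart. Slow spins enriched hepatocytes without removing all other cells, and endothelial nuclei made up 1809 of the 18394 nuclei of Primary Hepatocytes.

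Of 53467 nuclei, 20024 came from Liver, 15049 from Cell Suspension and 18394 from Primary Hepatocytes, with 880 to 3175 nuclei per sample. The median number of unique molecular identifiers (UMIs, each a captured RNA molecule) per nucleus was 3670 to 9923 in Liver samples, 2002 to 5319.5 in Cell Suspension and 3722 to 7158 in Primary Hepatocytes. Between 11 and 34 cell barcodes were shared by each pair of the 6 pools in which samples were run, 337 barcodes in all. Against their sample, 172 nuclei of Liver and 780 of Cell Suspension lay in clusters named as cultured, and 276 nuclei of Primary Hepatocytes lay in clusters that were not. Of the 172 and 780, 166 and 705 lay in the authors' cluster 8, which is low in UMIs (median 1608) and was taken as hepatocytes. Cultured nuclei carry no cell type in the authors' table, and their clusters were divided by marker genes. The summed level of 8 hepatocyte markers in nuclei taken as hepatocytes was 10620 to 16860 CPM (UMIs scaled to a total of 1000000) in Liver, 11580 to 18790 in Cell Suspension and 2008 to 5907 in Primary Hepatocytes, with no marker at 0. In the same nuclei the 10 endothelial markers summed to 34.5 to 55.1, 34.5 to 77 and 82.9 to 152 CPM, and the 10 stellate markers to 19.2 to 46.8, 16.6 to 51 and 78.4 to 642 CPM. Between Primary Hepatocytes and Liver, 4 of the 10 endothelial markers were called higher and 4 lower in these nuclei (median log2 -0.31), and 2 of the 10 stellate markers higher and 0 lower (median -0.28). The part of these other markers in the values below was not tested.

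The promoters of 4 members that changed in culture are shown because all hold the 6 letters CATTCC, the core to which TEAD factors are known to bind, or its reverse GGAATG. Each is the 250 bases before a gene start in RefSeq (build GRCm38.p6), which for Ankrd1 and Amotl2 lie inside the span of the gene in the GENCODE annotation, 5′ to 3′ on the gene's strand, with the motif in capitals. Ccn1 encodes a secreted matrix protein and Ankrd1 an ankyrin repeat protein known from strained heart muscle, and Ajuba and Amotl2 encode regulators of LATS and YAP at cell junctions.
Ccn1, chr3:145649986-145650235, minus strand: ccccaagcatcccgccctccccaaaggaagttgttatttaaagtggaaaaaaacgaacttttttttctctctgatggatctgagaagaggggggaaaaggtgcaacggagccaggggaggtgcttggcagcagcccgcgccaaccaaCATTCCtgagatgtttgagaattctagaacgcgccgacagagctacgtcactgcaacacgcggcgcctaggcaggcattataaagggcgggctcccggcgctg
Ankrd1, chr19:36119845-36120094, minus strand: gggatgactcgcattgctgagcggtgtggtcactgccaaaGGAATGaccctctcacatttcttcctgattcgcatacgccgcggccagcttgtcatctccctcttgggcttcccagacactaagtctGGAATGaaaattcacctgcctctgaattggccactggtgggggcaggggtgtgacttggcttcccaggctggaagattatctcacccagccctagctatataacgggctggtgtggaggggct
Ajuba, chr14:54577662-54577911, minus strand: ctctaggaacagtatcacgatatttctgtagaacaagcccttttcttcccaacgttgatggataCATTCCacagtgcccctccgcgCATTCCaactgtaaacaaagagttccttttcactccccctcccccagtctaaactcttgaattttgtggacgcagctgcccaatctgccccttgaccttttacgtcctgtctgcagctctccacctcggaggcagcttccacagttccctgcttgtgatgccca
Amotl2, chr9:102717554-102717803, plus strand: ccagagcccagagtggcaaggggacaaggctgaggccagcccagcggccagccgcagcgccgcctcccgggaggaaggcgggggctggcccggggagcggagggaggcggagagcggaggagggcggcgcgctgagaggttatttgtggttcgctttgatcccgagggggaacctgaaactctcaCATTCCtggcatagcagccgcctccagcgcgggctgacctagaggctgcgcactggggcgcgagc
The motif began 103 bases before the start in Ccn1, 65 in Amotl2, 210 and 123 in Ankrd1, and 186 and 164 in Ajuba. Of the 8 members with a promoter in the table, 7 held it on either strand, Lats2 being the exception, beside 12.6% of 32851 promoters of the same length. The members were counted per gene over all promoters of that gene, and the share of all promoters per promoter. Tead1 and Ccn2 had no promoter there. Yap1, Wwtr1 and Axl, which are not shown, also held the motif. None of the 8 held an AP-1 motif (TGANTCA, 6.75% of promoters) or a CArG box (1.47% of promoters), the motifs of FOS and JUN and of SRF. Both strands were searched, and each motif was counted on its own. A match describes letters and is not evidence of binding.

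In Liver, the members were spread unevenly over the cell types. Levels are given as normalised CPM, that is CPM of the summed nuclei of that type and sample after scaling by the trimmed mean of M values, as the lowest, median and highest of 8 mice. The scaling is computed within each fit, so the level of the same nuclei differs somewhat between the comparison of cell types and that of sample types. Differences are log2 fold changes with their standard error (SE) and the adjusted p of edgeR's quasi-likelihood test over all genes, and a gene is called at an adjusted p under 0.05. The mouse is a block in the comparisons of cell types within Liver, and the comparisons of sample types further on have no block unless one is named. In bulk sums of this kind, fewer cells that transcribe a gene and less RNA per cell cannot be told apart.

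Yap1 was at 185, 230 and 281 CPM in Liver hepatocytes. It was at 104, 120 and 141 CPM in endothelial nuclei, 141, 174 and 247 in stellate nuclei and 17.9, 24.7 and 48.4 in Kupffer nuclei. Hepatocytes did not overlap endothelial or Kupffer nuclei, and they overlapped stellate nuclei. Yap1 was lower than in hepatocytes in endothelial (log2 -0.92, SE 0.11, adjusted p = 5.4e-11, edgeR), stellate (-0.38, SE 0.11, adjusted p = 0.0047) and Kupffer nuclei (-3.08, SE 0.15, adjusted p = 1.5e-26). The stellate difference was -0.04 (adjusted p = 0.79) when size factors by relative log expression were used, a scaling that moved the median of all genes by 0.33 in that comparison, and -0.17 (adjusted p = 0.13) under a stricter filter.

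Wwtr1, which encodes TAZ, ran the other way in endothelial nuclei. It was at 72.2, 107 and 133 CPM in hepatocytes, 382, 436 and 547 in endothelial, 120, 168 and 220 in stellate and 2.98, 13.5 and 48.8 in Kupffer nuclei. Endothelial nuclei stood above all hepatocyte sums, 4.4-fold by the fit (log2 2.14, SE 0.14, adjusted p = 9.6e-22, edgeR). Stellate nuclei were 1.62-fold higher than hepatocytes (0.69, SE 0.15, adjusted p = 5.3e-05) with some overlap, and Kupffer nuclei were lower (-2.51, SE 0.21, adjusted p = 6.8e-16). Tead1, the DNA-binding partner, was at 72.4, 105 and 123 CPM in hepatocytes, 199, 255 and 300 in endothelial, 381, 433 and 673 in stellate and 9.46, 15.1 and 36.8 in Kupffer nuclei. No group overlapped another. Tead1 was 2.43-fold higher in endothelial (1.28, SE 0.13, adjusted p = 1.6e-13) and 4.73-fold higher in stellate nuclei than in hepatocytes (2.24, SE 0.13, adjusted p = 4.3e-23), and it was lower in Kupffer nuclei (-2.35, SE 0.20, adjusted p = 3.6e-16).

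Of the 4 target genes, Ccn2 and Axl were higher in some non-parenchymal types than in hepatocytes. Ccn2, which encodes connective tissue growth factor, had 27 UMIs in hepatocytes of all 8 mice and was at 8.76, 13.7 and 34.8 CPM in endothelial and 4.04, 7.9 and 43.4 CPM in stellate nuclei, against at most 0.686 CPM in hepatocytes. The fitted differences were 6.24 (SE 0.36, adjusted p = 6.7e-22) and 5.42 (SE 0.51, adjusted p = 1.2e-13). Ccn2 had no UMI among 2975051 in Kupffer nuclei, which allows up to 1.01 CPM by counting error. Axl, a receptor tyrosine kinase for Gas6 that macrophages use to clear dying cells, was at 142, 315 and 378 CPM in Kupffer nuclei and at 33, 41.3 and 52.7 in stellate nuclei. It was at 1.75, 7.17 and 15.2 in endothelial nuclei and 0.324, 1.02 and 1.33 in hepatocytes, so the 4 types did not overlap and Kupffer nuclei stood 314-fold above hepatocytes (8.30, SE 0.20, adjusted p = 9.1e-43). Lats2, a kinase that phosphorylates YAP, was higher than in hepatocytes in endothelial (1.10, SE 0.11, adjusted p = 2.3e-13) and stellate nuclei (1.19, SE 0.12, adjusted p = 2.5e-13). Amotl2, an angiomotin that holds YAP at junctions, was higher in endothelial nuclei (0.82, SE 0.16, adjusted p = 1.1e-05) and lower in Kupffer nuclei (-3.42, SE 0.38, adjusted p = 1.2e-11). Ccn1 was lower in Kupffer nuclei than in hepatocytes (-1.43, SE 0.47, adjusted p = 0.011). Ajuba (506 UMIs in hepatocytes) and Ankrd1 (22 UMIs) were not called against hepatocytes in any of these types, and Ccn1 and Amotl2 were not called in stellate nuclei. With size factors by relative log expression, Ccn1 (0.92), Amotl2 (0.75) and Ajuba (1.11) were called higher in stellate nuclei, and Ankrd1 (2.44, adjusted p = 0.049) and Lats2 (0.36, adjusted p = 0.024) in Kupffer nuclei. In all, 7 of 10 members differed between endothelial nuclei and hepatocytes (47% of 24407 genes tested did), 6 between stellate nuclei and hepatocytes (41%) and 6 between Kupffer nuclei and hepatocytes (41%). Hepatocyte markers reached 19.2%, 22.1% and 26.2% of their hepatocyte level in endothelial, stellate and Kupffer nuclei of Liver, and the part of such RNA in these values was not tested.

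**Figure D1:**
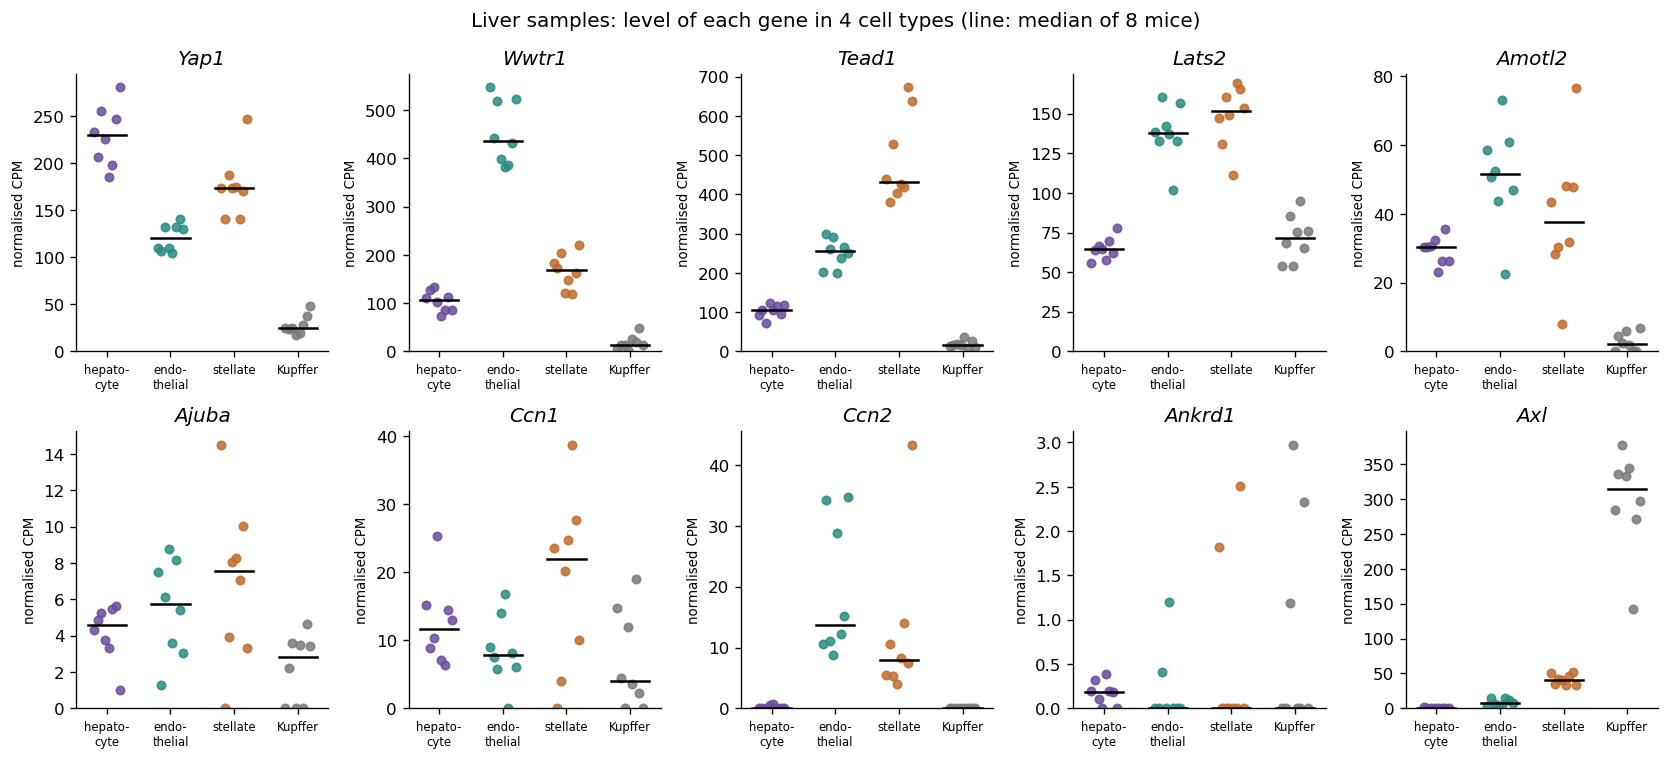
Level of each member in Liver by cell type. Points are normalised CPM of 8 mice (y axis, from 0, scaled per panel), in hepatocytes, endothelial, stellate and Kupffer nuclei (x axis), and the line is the median. Wwtr1 is highest in endothelial, Tead1 in stellate and Axl in Kupffer nuclei.

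Within Liver hepatocytes, Wwtr1, Ccn1 and Amotl2 were higher around the central vein in 8 of 8 mice and Lats2 in 7 of 8, while Tead1 and Yap1 were lower. The authors' clusters 18 and 23 held the nuclei high in Glul, the glutamine synthetase of the cells around the central vein. Glul was at 1395, 1612 and 2334 CPM before scaling in these nuclei, beside 17.9, 30.9 and 53.5 in the other hepatocyte clusters without the low-UMI cluster 8. Wwtr1 was at 119, 236 and 309 CPM in these nuclei and at 51.9, 70.5 and 95.5 CPM in the others, and it was higher in 8 of 8 mice. Ccn1 was at 10.2, 20.7 and 52.7 CPM beside 4.81, 8.16 and 18.5 CPM, and Amotl2 at 20.8, 31.6 and 45.2 beside 18.4, 24.5 and 27.8 CPM. Both were higher in 8 of 8 mice, whereas Tead1 was lower in 8 of 8 (43, 77 and 92.5 beside 59.3, 89.6 and 109 CPM) and Yap1 in 7 of 8. Ajuba was higher in 2 of 8 mice, Ccn2 in 2, Ankrd1 in 4 and Axl in 5. The clusters had been drawn on the transcriptomes that hold these genes, so the values describe the clusters and were not tested.

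The same direction was seen in Cell Suspension for Wwtr1, Ccn1 and Amotl2, and not for Lats2. Cluster 10 held the nuclei rich in Cyp2e1, a pericentral cytochrome, in the 5 samples with at least 100000 UMIs on both sides (2141, 2746 and 3062 CPM beside 174, 475 and 941). Ccn1 was at 499, 559 and 767 CPM in it and at 122, 172 and 195 CPM in the other hepatocyte clusters, without clusters 8, 18 and 23. Wwtr1 was at 85.4, 110 and 142 CPM beside 39.7, 52.7 and 86.2, and Tead1 at 29.2, 74.2 and 83.7 CPM beside 103, 118 and 161. Ccn1 and Wwtr1 were higher and Tead1 was lower in 5 of 5 samples. Amotl2 was also higher in 5 of 5 (23.9, 31.9 and 52.9 beside 10.5, 16.4 and 22.8 CPM), whereas Lats2 and Yap1 were each higher in 2 of 5. Ajuba and Ankrd1 were higher in 0 of 5, Ccn2 in 1 and Axl in 4. The 10 genes that lead this cluster are Fosb, Dlec1, Atf3, Gadd45a, Krt8, Gadd45g, Slc1a2, Cyp2c29, Gm13872 and Angptl8. Of these Gadd45a is on the list of other YAP targets, and again no test was made.

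**Figure D2:**
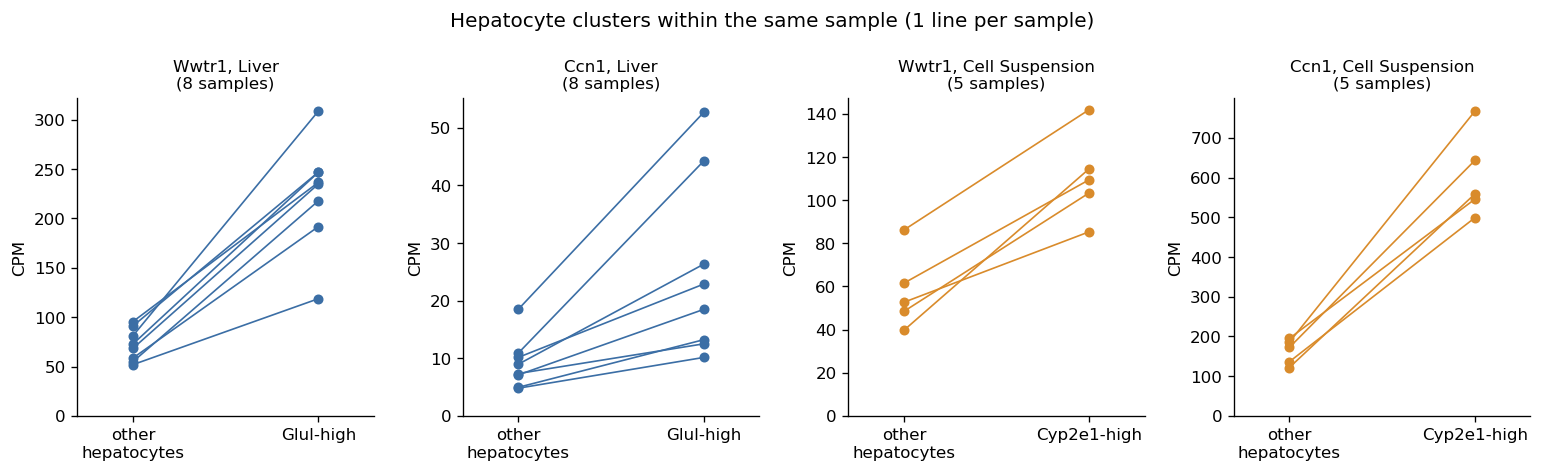
Wwtr1 and Ccn1 in hepatocyte clusters of the same sample. Each line joins the CPM before scaling (y axis, from 0) of the other hepatocyte clusters and of the Glul-high clusters of Liver or the Cyp2e1-high cluster of Cell Suspension (x axis). Cluster 8 was left out of the other clusters, as were clusters 18 and 23 in Cell Suspension. All lines rise, in 8 Liver and 5 Cell Suspension samples.

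Liver endothelial nuclei were uneven for Ccn2. In the 5 mice with enough nuclei, Ccn2 was at 49.7, 63.3 and 97.1 CPM in the Vwf-expressing clusters 24 and 26, and at 1.43, 3.33 and 14.4 CPM in cluster 3, the large Stab2-expressing cluster. Pooled over all samples, Ccn2 was at 98.8 CPM in cluster 24 and 31.9 in cluster 26. Cluster 24 also held the mesothelial markers at 696 CPM, beside 57.9 in cluster 26 and 15.7 in cluster 3, and their part in its values was not tested. Vwf is a gene of the larger vessels and Stab2 one of the sinusoids. Tead1 (257, 294 and 320 beside 185, 212 and 259 CPM), Lats2 and Amotl2 were higher in the same clusters in 5 of 5 mice.

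After isolation, Ccn1 rose in hepatocytes by more than any other member. The comparison of Cell Suspension with Liver covers the steps between the rinsed lobe and the frozen pellet, namely collagenase, dispersal and washing in plating medium with serum, before any plating. Ccn1 was at 5.84, 10.8 and 23.4 CPM in Liver and at 192, 245 and 419 CPM in Cell Suspension. The lowest Cell Suspension sample lay above the highest Liver sample, and the fitted difference was 24.2-fold (log2 4.60, SE 0.24, adjusted p = 9.4e-15, edgeR), the 14th largest rise of 26778 genes tested. Samples of both types shared 4 of the 6 pools. Ccn1 was 248 CPM beside 9.87 to 13.4 in pool 1, 214 and 228 beside 23.4 in pool 2, 419 beside 7.14 in pool 5 and 192 beside 5.84 to 13.5 in pool 6.

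Ccn2 was at 0, 0.102 and 0.688 CPM in Liver hepatocytes and at 0, 1.03 and 3 CPM in Cell Suspension, and the groups overlapped. The fit called it higher (2.44, SE 0.53, adjusted p = 8.7e-04) on 27 and 68 UMIs, and with all sums thinned to the smallest the call was lost (1.80, adjusted p = 0.12). Ankrd1, on 22 and 30 UMIs, was not called (1.61, SE 0.73, adjusted p = 0.12). It was called with the mouse as a block (1.58, adjusted p = 0.037), with DESeq2 (1.86, adjusted p = 0.016) and without mouse 6 (1.84, adjusted p = 0.039). Tead1 was at 69.5, 99.9 and 113 CPM in Liver and 102, 123 and 168 CPM in Cell Suspension (0.43, SE 0.13, adjusted p = 0.012). The overlap was small, but the Tead1 call was lost without mouse 1 (0.35, adjusted p = 0.070), with the pool as a covariate (0.29, adjusted p = 0.11), when scaled by total UMIs (0.29, adjusted p = 0.056) and in spliced UMIs alone (0.27, adjusted p = 0.25). Lats2 fell from 49.8, 59 and 70.5 to 43.7, 47 and 53.8 CPM (-0.32, SE 0.09, adjusted p = 0.0080), although its spliced UMIs alone gave 0.11 (adjusted p = 0.58), and the call was also lost with size factors by relative log expression (-0.24, adjusted p = 0.050) and in thinned sums (-0.23, adjusted p = 0.12). Yap1 (-0.14, SE 0.11), Wwtr1 (-0.15, SE 0.17), Amotl2 (-0.12, SE 0.12), Ajuba (-0.08, SE 0.24) and Axl (0.22, SE 0.25) were not called, with 95% intervals within -0.55 and 0.71 on the log2 scale. Scaled by total UMIs, Yap1 was called lower (-0.28, adjusted p = 0.024). In all, 3 members were higher (8.15% of genes tested were) and 1 was lower (14.2% were). Without the trimmed-mean scaling, 1381 genes were higher and 5556 lower in place of 2183 and 3800, and the median of all genes moved by -0.13.

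In Primary Hepatocytes, after both isolation and 24 hours of culture, 8 of the 10 members were called higher than in Liver in hepatocyte nuclei, and Yap1 was the member that was lower. Of these 8, Ccn1 was lower than in Cell Suspension, and the call of Axl rested on the processing. Ccn2 rose from at most 0.688 CPM in Liver to 16.5, 24 and 29.8 CPM in Primary Hepatocytes, and Ankrd1 from at most 0.387 to 3.78, 16.1 and 41.3 CPM. All Primary Hepatocytes samples lay above all Liver and Cell Suspension samples for both genes. The fitted rises over Liver were 108-fold for Ccn2 (6.75, SE 0.41, adjusted p = 5.2e-15) and 94.8-fold for Ankrd1 (6.57, SE 0.48, adjusted p = 3.9e-13), the 14th and 22nd largest of 26778 genes. The base of both folds is 27 and 22 UMIs over 8 Liver samples. The Ankrd1 sample of mouse 3 (41.3 CPM) stood apart from the other 7, which reached 21.6 CPM. Over Cell Suspension, Ccn2 was 19.9-fold (4.31, SE 0.36, adjusted p = 1.1e-11) and Ankrd1 31.1-fold higher (4.96, SE 0.46, adjusted p = 1.3e-10).

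Among the members called higher, Tead1 was the most abundant in UMIs, with 80749 in Primary Hepatocytes against 11810 in Liver. It was at 434, 507 and 628 CPM, above the highest Liver (113) and Cell Suspension sample (168). The rise was 5.44-fold over Liver (2.44, SE 0.13, adjusted p = 3.8e-16) and 4.04-fold over Cell Suspension (2.01, SE 0.13, adjusted p = 3.4e-14). Ajuba, a LIM protein that inhibits LATS kinases, rose from 0.931, 4.12 and 5.17 to 11.2, 20.3 and 25.1 CPM, 4.96-fold over Liver (2.31, SE 0.21, adjusted p = 9.3e-11). The Ajuba groups did not overlap either, and Cell Suspension (1.03, 3.66 and 5.44 CPM) lay with Liver.

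Ccn1 went up and partly down again along the 3 steps. In Primary Hepatocytes it was at 77.1, 109 and 134 CPM, between the other types and without overlap with either. It was 9.28-fold above Liver (3.21, SE 0.23, adjusted p = 2.2e-13) and below Cell Suspension (-1.38, SE 0.21, adjusted p = 1.4e-06). Amotl2 rose from 23.2, 27.1 and 32.7 to 32.2, 42.2 and 55.4 CPM with overlap in the lowest cultured sample (0.65, SE 0.11, adjusted p = 1.4e-05). Lats2 was at 61.4, 73.7 and 80 CPM and overlapped Liver (0.27, SE 0.09, adjusted p = 0.0088), and the Lats2 call over Liver was lost without mouse 1 (0.21, adjusted p = 0.052) and with the pool as a covariate (0.20, adjusted p = 0.16). Over Cell Suspension, Lats2 did not overlap and was higher (0.59, SE 0.09, adjusted p = 1.1e-06).

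Of the coactivators, Yap1 was lower in culture and Wwtr1 was not called, and both depended on the processing. Yap1 was at 184, 208 and 255 CPM in Liver and 143, 166 and 181 CPM in Primary Hepatocytes, which do not overlap (-0.38, SE 0.11, adjusted p = 0.0035). The sign of the Yap1 difference depended on the scaling, since scaled by total UMIs alone it was 0.19 (adjusted p = 0.074), and it was 0.11 in spliced UMIs. That scaling moved the median of all genes by 0.56, gave 13078 genes higher and 4196 lower in place of 7330 and 7049, and left the 8 members called higher so. Over Cell Suspension, Yap1 was not called (-0.24, SE 0.11, adjusted p = 0.068). It was called lower there under edgeR's filterByExpr (-0.24, adjusted p = 0.028), with the pool as a covariate (-0.3, adjusted p = 0.017), in unspliced UMIs alone (-0.34, adjusted p = 0.011), without mouse 6 (-0.31, adjusted p = 0.025) and without the Liver and Cell Suspension nuclei named as cultured (-0.28, adjusted p = 0.035). It was called higher when scaled by total UMIs (0.46, adjusted p = 6.2e-05) and in spliced UMIs alone (0.3, adjusted p = 0.013). Wwtr1 was at 72.5, 97.2 and 127 CPM in Liver and 99.7, 122 and 138 CPM in Primary Hepatocytes and was not called (0.34, SE 0.17, adjusted p = 0.089). It was called with the mouse as a block (0.38, adjusted p = 0.018), in spliced UMIs alone (1.13, adjusted p = 3.7e-07), scaled by total UMIs (0.91, adjusted p = 1.8e-05) and in 10 of 22 alternatives in all, and it was called over Cell Suspension (0.49, SE 0.17, adjusted p = 0.016), the latter not without mouse 8 (0.38, adjusted p = 0.066). Axl stayed near 1 CPM in hepatocytes (0.291, 0.941 and 1.19 in Liver beside 0.983, 1.17 and 1.57). Its call (0.50, SE 0.21, adjusted p = 0.047) was lost with the block (adjusted p = 0.087) and without any of mice 2, 3, 5, 6, 7 and 8 in turn (adjusted p up to 0.19), in 10 of 22 alternatives in all, and in spliced UMIs alone Axl was called lower (-1.24, adjusted p = 0.028).

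In all, 8 members were higher over Liver (27.4% of 26778 genes were) and 1 was lower (26.3% were). Over Cell Suspension 7 were higher (26.9%) and 1, Ccn1, was lower (23.5%). Liver and Primary Hepatocytes met in 2 pools. In pool 2, Tead1 was 113 CPM in the Liver and 434 in the Primary Hepatocytes sample, Ccn2 0.45 and 16.5, and Ajuba 3.49 and 25.1. In pool 5 the Liver sample had 106 CPM of Tead1, 0.69 of Ccn2 and 3.31 of Ajuba, beside 517 and 617, 29.8 and 21.9, and 23.8 and 19.3 in the cultured samples. The directions were thus the same within both pools for these genes.

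**Figure D3:**
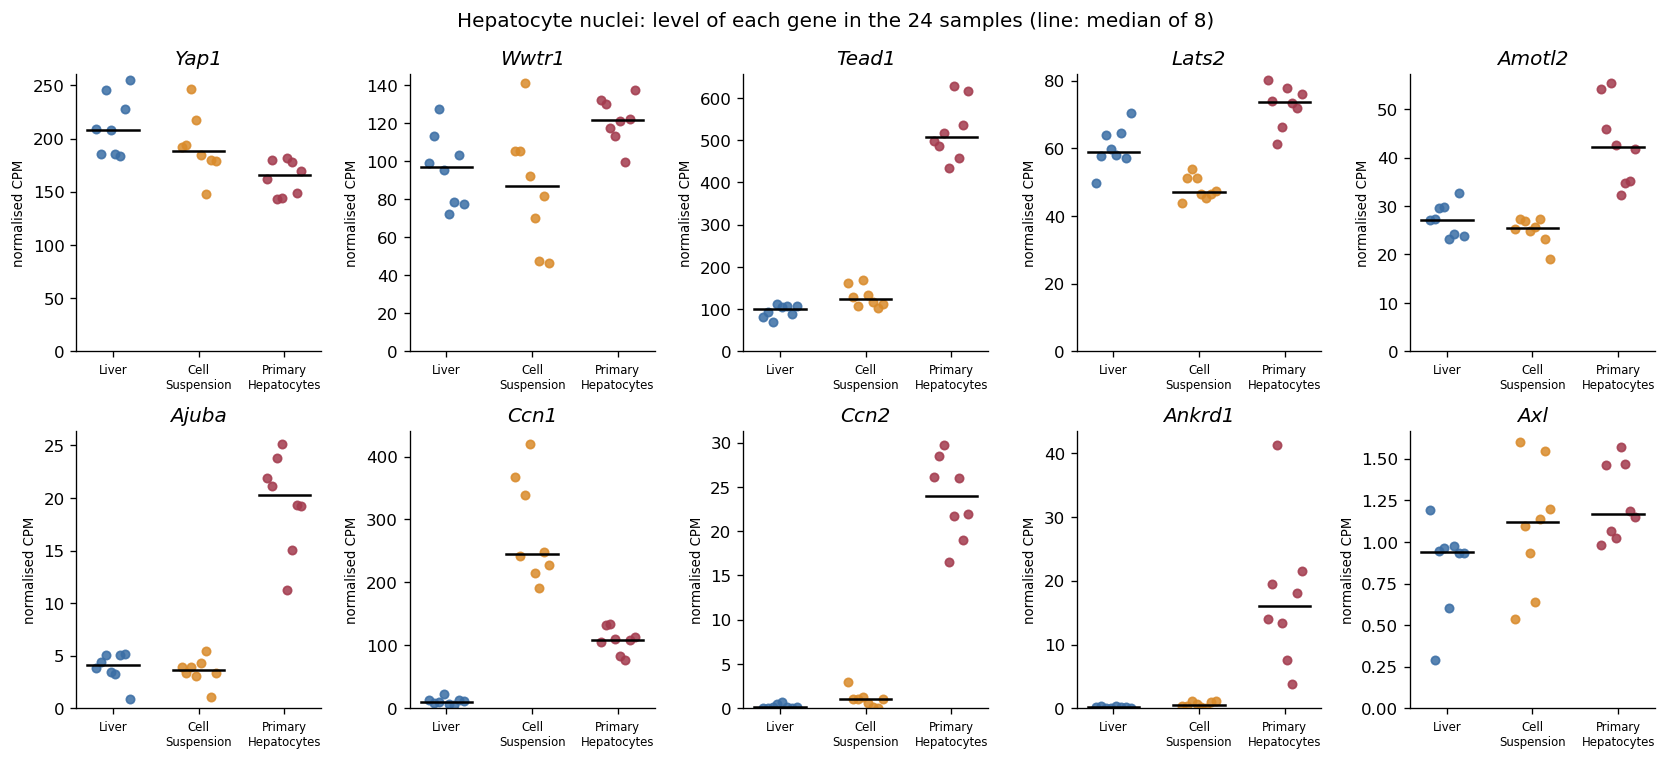
Level of each member in hepatocyte nuclei of all 24 samples. Points are normalised CPM per sample (y axis, from 0, scaled per panel) in Liver, Cell Suspension and Primary Hepatocytes (x axis), and the line is the median of 8. Tead1, Ajuba, Ccn2 and Ankrd1 are highest in culture without overlap, whereas Ccn1 is highest in Cell Suspension.

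Counted as nuclei at an equal depth of 1000 UMIs, Tead1 was found in a median of 9.02% of Liver, 9.44% of Cell Suspension and 44.2% of cultured hepatocyte nuclei. Without thinning the shares were 38%, 35.3% and 84.9%, at median depths of 6860, 3025 and 5916 UMIs, and 587, 932 and 293 nuclei were too shallow for the thinned count. At the same depth a Tead1 UMI was in a median of 0.83% of Liver and 7.84% of Cell Suspension Kupffer nuclei (median depths 2362 and 2216 before thinning). Pooled over samples, the Cell Suspension share was 10.3% in hepatocytes (exact 95% binomial interval 9.74% to 10.8%) and 5.95% in Kupffer nuclei (3.44% to 9.48%). Ccn1 went from 1.13% to 17.9% and 12.1% of hepatocyte nuclei (6.56%, 36% and 39.3% unthinned) and was in 0.41% of Liver and 4.29% of Cell Suspension Kupffer nuclei. Ccn2 was in 2.79% and Ankrd1 in 1.22% of cultured hepatocyte nuclei (8.37% and 3.75% unthinned), against medians of 0.0928% and 0.0936% in Cell Suspension and 0% in Liver. Neither gene was found in Kupffer nuclei of Liver in the median. The 57 Kupffer nuclei of Primary Hepatocytes with enough UMIs, pooled over samples, had a Tead1 UMI in 12.3% (exact 95% binomial interval 5.08% to 23.7%), a Ccn1 UMI in 3.51% (0.428% to 12.1%) and an Ankrd1 UMI in 1.75% (0.0444% to 9.39%), at a median depth of 1576 UMIs before thinning. Ccn2 was in 0 of 57 (0% to 6.27%). These Kupffer nuclei lie in a cluster not named as cultured and are among the 276 that go against their sample. With 57 nuclei, 1 nucleus is already 1.75%, above the cultured hepatocyte share of Ankrd1, and 0 of 57 allows more than that of Ccn2. So few nuclei cannot give a background for either share, and no conclusion is drawn.

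Among cultured hepatocytes, Ccn2 and Ankrd1 were highest in the same cluster. Cultured hepatocytes fell mainly into the authors' clusters 0 and 1, and Ccn2 was at 46.7, 59.2 and 118 CPM in cluster 0 and at 1.00, 4.72 and 6.52 CPM in cluster 1 of the same 8 samples. Ankrd1 was at 19.5, 46.7 and 94.3 CPM beside 1.04, 2.02 and 4.57 CPM. Both genes are among the 10 that lead cluster 0, so this describes the cluster. Ccn1 (145, 189 and 329 beside 81.6, 109 and 129 CPM) and Ajuba were also higher in cluster 0 in 8 of 8 samples, whereas Tead1 was lower in 7 of 8, and Yap1 and Lats2 in 8 of 8. Wwtr1 was higher in cluster 0 in 6 of 8 samples, Amotl2 in 7 and Axl in 3. Beside clusters 1, 14 and 17 together, Tead1, Yap1 and Lats2 were each higher in cluster 0 in 3 of 8 samples, while Ccn1, Ajuba, Ccn2, Ankrd1 and Wwtr1 were higher in 8 of 8. In that comparison Amotl2 was higher in 7 of 8 and Axl in 1 of 8. The 8 biliary markers summed to 306 CPM in cluster 0, beside 86.3, 151 and 67.4 CPM in clusters 1, 14 and 17. Over all hepatocyte nuclei of a sample they summed to 134 to 196 CPM in Liver, 118 to 184 in Cell Suspension and 152 to 223 in Primary Hepatocytes, and 4 of the 8 were called higher and 2 lower in Primary Hepatocytes than in Liver (median log2 1.03). The part of these markers in the values of cluster 0 was not tested. At 1000 UMIs, 436 of 15990 cultured hepatocyte nuclei had a Ccn2 UMI, 218 an Ankrd1 UMI and 29 both. Most nuclei with either gene held no UMI of the other. At this depth a nucleus that transcribes both would seldom show both, so the count cannot tell whether the genes are in separate nuclei. An Ankrd1 UMI was in a median of 7.8% (0% to 11.4%) of nuclei with Ccn2 and 1.08% (0.164% to 2.37%) of those without. The sample of mouse 5 had none among 53 nuclei with Ccn2, and that of mouse 6 had 1 among 60. No test was made.

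Splicing state was read from the same nuclei as the unspliced share of spliced and unspliced UMIs. It was compared by two-sided exact permutation tests between groups of samples with at least 20 UMIs, adjusted over 21 comparisons, of which 12 passed. The smallest p that 8 against 8 samples can give is 1.6e-04. All hepatocyte RNA moved in the same direction, since the unspliced share of all UMIs was 80.5% ± 1.74 (SD, n = 8) in Liver, 72.8% ± 3.02 (n = 8) in Cell Suspension and 70.9% ± 1.58 (n = 8) in Primary Hepatocytes. By the same test adjusted over all genes, which was added after seeing the data and left the same 12 comparisons of members past the threshold, the share was lower in culture than in Liver in 54.2% of 12893 genes and higher in 5.38%, and in Cell Suspension than in Liver lower in 57.5% of 10871 genes and higher in 2.01%. Of the 7 members tested, 6 were lower in culture and 4 in Cell Suspension than in Liver, and their median differences of -4.32 and -3.73 percentage points stood beside -4.00 and -5.26 over all genes. Over Cell Suspension, 2 members were lower in culture, beside 11.4% of 10708 genes lower and 14.2% higher. The member values below are therefore read beside a shift of all genes. The unspliced share of Lats2 was 90.5% ± 1.34 (SD, n = 8) in Liver, and it was lower after isolation (83.1% ± 3.40, n = 8) and in culture (82.9% ± 2.80, n = 8) (adjusted exact permutation p = 8.2e-04 for each over Liver). In Ajuba it was 59.6% ± 6.01 (n = 7) in Liver and 43.1% ± 4.90 (n = 8) in culture (adjusted exact p = 0.0013), and in Amotl2 66.5% ± 3.60, 51.1% ± 8.09 and 57.3% ± 7.62 (adjusted exact p = 0.0016 for Cell Suspension and 0.020 for culture). For Yap1 it went from 93.2% ± 1.36 to 88.8% ± 0.956 in culture, for Wwtr1 from 96.5% ± 0.743 to 93.1% ± 0.257, and for Tead1 from 92.1% ± 1.98 to 88.8% ± 1.03 (adjusted exact p = 8.2e-04, 8.2e-04 and 0.0028). Ccn1 was at 39.8% ± 7.26, 36.0% ± 5.74 and 36.1% ± 1.56, with no comparison past the threshold (adjusted exact p from 0.25 to 0.99). Its differences from Liver were -3.73 points in Cell Suspension and -3.71 in culture. The culture difference was of the size of those of Wwtr1 (-3.41) and Tead1 (-3.33), so the missing call does not set Ccn1 apart. These tests were unpaired, although the samples of a number share a mouse. Paired by mouse in a two-sided exact sign-flip test, an alternative chosen after seeing the data, 8 of the 21 comparisons passed (8 pairs give at least p = 0.0078). The comparisons lost were Amotl2 in culture over Liver (adjusted exact p = 0.066), Yap1 in culture over Cell Suspension (0.066), Wwtr1 in Cell Suspension over Liver (0.082) and, on 5 pairs that cannot give less than p = 0.0625, Ajuba in Cell Suspension over Liver (0.094). Ankrd1 in culture was at 55% ± 9.30 unspliced, whereas Ccn2 had 2935 spliced and 7 unspliced UMIs there. Tead1 spans 227490 and Wwtr1 120262 bases of the genome, beside 3006 for Ccn1 and 3242 for Ccn2.

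Endothelial nuclei shared part of the change. Ccn1 was at 0, 8.13 and 17.4 CPM in Liver, 26, 62.3 and 160 CPM in Cell Suspension and 44.1, 49.1 and 72 CPM in Primary Hepatocytes. Liver did not overlap the others, and Ccn1 was higher in Cell Suspension (2.70, SE 0.32, adjusted p = 9.2e-08) and in culture (2.47, SE 0.31, adjusted p = 1.6e-08). It was the 1 member called between Cell Suspension and Liver (3.9% of 18279 genes were). Tead1 rose in culture from 206, 265 and 316 to 424, 628 and 1104 CPM without overlap (1.39, SE 0.16, adjusted p = 8.2e-10). Ccn2 went from 9.24, 14.1 and 36.9 to 8.95, 56.4 and 106 CPM with overlap (1.53, SE 0.32, adjusted p = 1.9e-04), and the Ccn2 call was lost with the pool as a covariate (0.97, adjusted p = 0.17).

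Lats2 fell in cultured endothelial nuclei from 105, 143 and 166 to 67.4, 87.9 and 119 CPM (-0.64, SE 0.16, adjusted p = 0.0014) and Amotl2 from 23.2, 53.5 and 75.7 to 22.5, 34.7 and 48.8 CPM (-0.72, SE 0.22, adjusted p = 0.0074), both with overlap. The Amotl2 call was lost without mouse 5 (-0.48, adjusted p = 0.12), with DESeq2 (-0.56, adjusted p = 0.050), with the better assigned hashtags (-2.25, adjusted p = 0.073) and in thinned sums (-0.25, adjusted p = 0.72), and held in 17 of 21 alternatives. The Lats2 call was lost with those hashtags (-0.19, adjusted p = 0.88), in spliced UMIs alone (-0.29, adjusted p = 0.49) and in thinned sums (-0.28, adjusted p = 0.47), and held in 18 of 21. The hashtag alternative keeps nuclei at or above the median margin of their sample, and most endothelial nuclei fell below it. It kept 2 to 38 of them per Liver sample and 0 to 58 per Primary Hepatocytes sample. At least 10 were left only in Liver of mice 3, 5 and 8, Cell Suspension of mice 1, 5, 7 and 8 and Primary Hepatocytes of mice 3, 5 and 6. Wwtr1 (395, 453 and 565 beside 284, 508 and 840 CPM; 0.22, SE 0.18), Yap1 (-0.13, SE 0.14), Ajuba (-0.10, SE 0.45), Axl (-1.01, SE 0.52) and Ankrd1 (1.81, SE 0.71, on 3 and 6 UMIs) were not called. Wwtr1 was called in spliced UMIs alone (1.22, adjusted p = 5.8e-05), with the better assigned hashtags (1.2, adjusted p = 0.036) and under edgeR's filterByExpr (0.39, adjusted p = 0.044), and Ankrd1 with size factors by relative log expression (1.93, adjusted p = 0.043), scaled by total UMIs (1.91, adjusted p = 0.046) and without mouse 8 (1.99, adjusted p = 0.045). In culture over Liver 5 members were called (33.8% of genes were). Over Cell Suspension 4 were called (20% of genes were), namely Tead1 (1.26, SE 0.16) and Ccn2 (1.93, SE 0.41) higher and Amotl2 (-0.75, SE 0.24) and Lats2 (-0.47, SE 0.17) lower. The Ccn2 call over Cell Suspension was lost with the better assigned hashtags (2.52, adjusted p = 0.075) and held in 19 of 20 alternatives. With the mouse as a block 2 were called, Amotl2 (-0.63, adjusted p = 0.060) and Lats2 (-0.45, adjusted p = 0.091) no longer. Without mouse 2, 5 or 7 in turn, 2 were called as well. The Amotl2 call over Cell Suspension held in 11 of 21 alternatives, and it was lost without any of mice 2, 5, 7 and 8 in turn (adjusted p from 0.059 to 0.10). The Lats2 call over Cell Suspension held in 6 of 21 alternatives, and it was lost without any of mice 1, 2, 3, 4, 5, 7 and 8 in turn (adjusted p from 0.062 to 0.24). Hepatocyte markers stood at 19.2% of their hepatocyte level in endothelial nuclei of Liver, 21.3% in that of Cell Suspension and 76.8% in cultured nuclei, where that level itself was lower. Ccn1 in endothelial nuclei stood at 26.6% of its hepatocyte level in Cell Suspension, and Tead1 at 106%, Ccn2 at 194% and Ankrd1 at 7.55% in Primary Hepatocytes. The part of hepatocyte RNA in the endothelial values was not tested.

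The response to culture differed between the 2 cell types for 8 of 10 members, all lower in endothelial nuclei (25.1% of 27025 genes differed). The difference of the changes was -5.32 for Ccn2 (SE 0.40, adjusted p = 3.9e-22), -4.21 for Ankrd1 (SE 1.31, adjusted p = 0.0094), -2.45 for Ajuba (SE 0.46, adjusted p = 7.0e-06), -1.49 for Amotl2 (SE 0.23, adjusted p = 5.2e-08), -1.25 for Tead1 (SE 0.18, adjusted p = 7.6e-09) and -1.07 for Lats2 (SE 0.19, adjusted p = 2.3e-06). For Axl it was -1.68 (SE 0.54, adjusted p = 0.012) and for Ccn1 -0.88 (SE 0.30, adjusted p = 0.021), and neither Ccn1 (-0.87, adjusted p = 0.12) nor Ankrd1 (adjusted p = 0.064) was called without the block. The Ccn1 difference was also not called with size factors by relative log expression (-0.82, adjusted p = 0.051) or under filterByExpr (-0.68, adjusted p = 0.095). Lats2 and Amotl2 thus rose in hepatocytes and fell in endothelial nuclei. The differences of Ccn2 and Ankrd1 rest on hepatocyte medians in Liver of 0.0885 and 0.157 CPM before scaling. Yap1 (0.09, interval -0.26 to 0.45) and Wwtr1 (-0.35, interval -0.73 to 0.04) were not called.

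**Figure D4:**
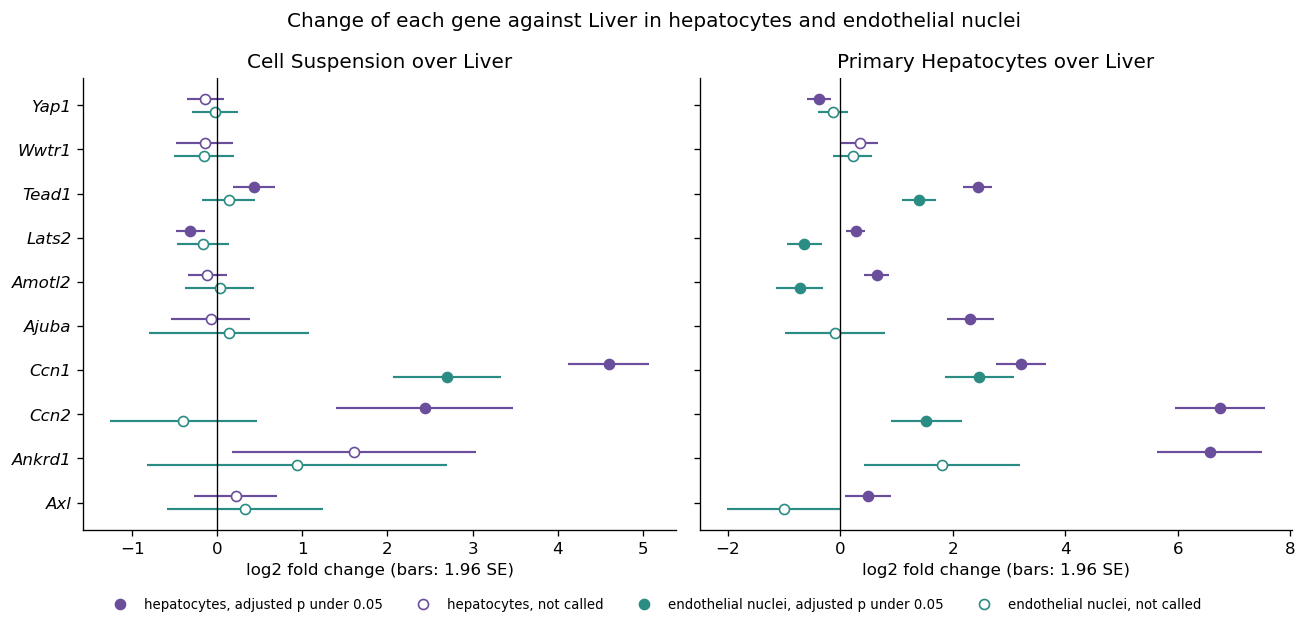
Change of each member against Liver in hepatocytes and endothelial nuclei. The x axis is the log2 fold change of Cell Suspension or Primary Hepatocytes over Liver, bars span the 95% interval of the fit, and filled points have an adjusted p under 0.05 by edgeR. Ccn1 is high in both cell types after isolation, whereas Ccn2 and Ankrd1 have the largest rises in cultured hepatocytes.

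Stellate and Kupffer nuclei were few outside Liver (148 and 342 in Cell Suspension, 192 and 77 in Primary Hepatocytes), and only Cell Suspension was tested against Liver. All 8 cultured samples had at least 10 stellate nuclei and are given as CPM before scaling, with no test. There Tead1 was at 440.1, 788.5 and 1111, Axl at 91.9, 151 and 228 and Ccn1 at 12, 90.5 and 278, beside medians of 453, 42.4 and 22.7 in Liver. Yap1 (204 beside 181) and Wwtr1 (205 beside 173) were near their Liver medians, Ccn2 was at a median of 24.6 beside 8.14, and Ankrd1 had 7 UMIs. Lats2 (100.6 beside 157.6) and Amotl2 (15.5 beside 39.6) had lower medians than in Liver, and Ajuba had 0 of 569648 UMIs beside a Liver median of 8.05. In stellate nuclei, Ccn1 rose from 0, 25 and 45.2 CPM in 8 Liver samples to 52, 181 and 219 CPM in the 7 Cell Suspension samples with enough nuclei (2.95, SE 0.38, adjusted p = 7.1e-07). The groups did not overlap, and it was the 1 member called (3.19% of 13516 genes were). In Kupffer nuclei, Ccn1 (2.83, SE 0.62, adjusted p = 0.0077, on 14 and 31 UMIs) and Tead1 (1.32, SE 0.34, adjusted p = 0.039, on 66 and 46 UMIs) were called higher (1.3% of 13819 genes were called), with overlap for both. With the mouse as a block 1 was called, Tead1 no longer (1.31, adjusted p = 0.084). Hepatocyte markers stood at 29.5% of their hepatocyte level in stellate and 21.4% in Kupffer nuclei of Cell Suspension, and Ccn1 at 97% and 18.1% of its own. What hepatocyte RNA adds to the Kupffer values was not tested.

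The rest of the pathway was read from lists of genes other than the members. Of 14 Hippo kinases and adaptors in hepatocytes, 4 were higher and 3 lower in culture than in Liver (median log2 0.09, beside 0.10 over all genes). Over all genes 27.4% were higher and 26.3% lower, so these counts, like those of the junction genes below, are near the share of all genes. Map4k4, a kinase that can activate LATS, rose from 9.54 to 54.7 CPM in the median (2.46, SE 0.21, adjusted p = 2.2e-11), and the adaptors Sav1 (0.94) and Mob1a (0.58) also rose. The kinases Taok3 (-2.02, from 834 to 210 CPM) and Taok2 (-0.82) and the tumour suppressor Nf2 (-0.43) fell. Of 6 measured TEAD and VGLL factors, Tead4 was higher (2.16, adjusted p = 7.1e-09, named after its values were seen, since it stayed under the level set for naming). Vgll4, a TEAD cofactor that competes with YAP, fell from 336 to 144 CPM (-1.26, SE 0.14, adjusted p = 3.5e-09) and Tead3 from 25 to 12.9 CPM (-0.99, SE 0.09, adjusted p = 1.5e-10).

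Of 17 junction and polarity regulators, 5 were higher and 5 lower (median 0.02), near the share of all genes. Ptpn14, a phosphatase that binds YAP, rose from 1.62 to 27.1 CPM (3.80, SE 0.17, adjusted p = 2.8e-18), with Scrib (1.12) and Frmd6 (1.10) also higher. Amot, the founding angiomotin, fell (-1.71, from 21.1 to 6.99 CPM), as did the polarity genes Pard3 (-1.39) and Llgl2 (-1.24). Of 20 other YAP targets, 10 were higher and 4 lower (median 0.54). Over Cell Suspension, 7 of the 20 were higher and 5 lower (median 0.20), near the share of all genes (26.9% and 23.5%). Tgfb2 rose from 2.01 to 39.1 CPM (4.20, SE 0.17, adjusted p = 4.1e-19) and F3, tissue factor, from 9.81 to 39 CPM (2.13, SE 0.20), whereas the kinase gene Nuak2 fell from 34.8 to 2.6 CPM (-3.61, SE 0.27, adjusted p = 7.0e-13) and Dock5 from 245 to 158 CPM (-0.68). Gadd45a, a stress gene, moved like Ccn1, with medians of 6.39, 138 and 28.6 CPM along the 3 types.

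The list of 18 actin and MRTF genes holds genes that actin polymerisation is known to induce through SRF, and the factor genes Srf, Mrtfa and Mrtfb. Of these 18, 15 were higher in cultured hepatocytes than in Liver and none lower (median 1.92). Over all genes 27.4% were higher and 26.3% lower. Over Cell Suspension, 11 were higher and 3 lower (median 1.10), beside 26.9% and 23.5% of all genes. Flna, filamin A, rose from 0.777 to 64.8 CPM (6.09, SE 0.27, adjusted p = 4.8e-18), Tagln2 from 0.443 to 8.46 CPM (3.97, SE 0.27) and Tpm2 from 0.507 to 7.35 CPM (3.61, SE 0.27). In Cell Suspension over Liver, 7 of these 18 were already higher and none lower (median 0.77, beside 0.02 over all genes), with Flna at 2.72 CPM (1.59, SE 0.30, adjusted p = 1.5e-04). At that step 1 of 14 Hippo kinases and adaptors was higher and 3 lower, 2 of 6 TEAD and VGLL factors (Tead4 and Vgll4) were higher, 2 of 17 junction genes were higher and 2 lower, and 2 of 20 other YAP targets (Gadd45a and Tgfb2) were higher, beside 8.15% of all genes higher and 14.2% lower. In cultured endothelial nuclei, 8 of 16 actin and MRTF genes were higher and 1 lower, and 3 of 17 other YAP targets were higher and 7 lower, beside 15.4% of all genes higher and 18.4% lower.

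The genes most like each member over the 24 hepatocyte sums, after the mean of the sample type was taken off, were found by Pearson's r of log2(CPM + 1) among 8616 genes. They were Pank1 (r = 0.91), Minpp1 and Pkp2 for Wwtr1, D17Wsu92e (r = 0.89), N4bp2l2 and Rapgef2 for Yap1, Acaca (r = 0.83), Npm1 and Vat1 for Tead1, Car1 (r = 0.82), Fst and Sort1 for Ccn1, Lamtor3 (r = 0.78), Ptdss1 and Gatad2a for Lats2, and Pigs (r = 0.77), Aldh5a1 and Kctd20 for Amotl2. Among themselves these 6 members gave r from -0.20 to 0.59 over 15 pairs, the highest for Yap1 with Lats2 and the next for Yap1 with Wwtr1 (0.57). The points share mice, pools and depth, and the values are descriptions.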

How the data were processed

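Nuclei of 24 hashtagged samples, 8 Liver, 8 Cell Suspension and 8 Primary Hepatocytes, were sequenced in 6 pools of 4. Reads were demultiplexed with bcl2fastq 2.19.0 and counted with Salmon and alevin-fry per the submitters' processing notes. The authors deposited raw UMI counts per barcode, gene and splicing state against a transcriptome of GRCm38, with no normalization. The deposited table of singlet nuclei gives sample, cluster and cell type, and a demultiplexing margin as a fraction that the authors made with mclust, after scDblFinder had removed doublets. Its name CD2 was read as Cell Suspension of mouse 2. Hepatocyte, endothelial, stellate and Kupffer nuclei are as the authors named them, and their cultured clusters 0, 1, 8, 14 and 17 were taken as hepatocytes, 12 as endothelial and 27 as stellate by marker genes.

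Spliced, unspliced and ambiguous UMIs were summed per sample and cell type with at least 10 nuclei. Genes with at least 10 counts were fitted with edgeR 4.0.16 (R 4.3.3) by quasi-likelihood, with TMM scaling and Benjamini-Hochberg adjustment over all genes. No covariate was used between sample types, after the study's pseudo-bulk design, while fits across cell types held the mouse or sample as a block. Each adjusted p is from edgeR unless named otherwise. Each SE was derived from the test, as the absolute log2 fold change over the square root of its F. The 95% intervals are 1.96 such SE on each side, and are approximate for genes with few UMIs. Shares of unspliced UMIs were compared by two-sided exact permutation tests. The 3 samples of a number came from 1 mouse, so the numbers pair the samples. Deviations of hepatocyte sums of the same mouse correlated at 0.31 to 0.84 between Liver and Cell Suspension, and at -0.05 to 0.13 between Liver and culture.

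Alternatives were DESeq2 1.42.0, other size factors and filters, the mouse block, the pool, thinned sums, spliced or unspliced UMIs alone, better assigned hashtags, other minimums, and each mouse left out. Leaving out cluster 8, leaving out Liver and Cell Suspension nuclei named as cultured, scaling by total UMIs, and pairing the unspliced shares by mouse or adjusting them over all genes were chosen after seeing the data. The code was tested on simulated data. The members, the gene lists and the comparisons were chosen with earlier results of these data known. Named were all members and, per list, up to 3 of the largest called rises and falls in cultured hepatocytes at 5 CPM or more. Intervals and floors cover counting error only. Precision is limited by 8 mice and by the UMIs of each gene, given beside the scarce ones.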

Additional observations from a re-analysis of the deposited data

Results flagged for a closer look

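In 14 of 94 groups of 4 to 10 samples, 1 sample stood apart from the rest by the gap to its neighbour (Dixon's 95% value), where chance gives about 1 in 20. In hepatocytes these were Ankrd1 in Primary Hepatocytes of mouse 3 (41.3 normalised CPM), Ccn1 in Liver of mouse 4 (23.4), Ccn2 in Cell Suspension of mouse 1 (3) and Ajuba in Liver of mouse 8 (0.931, the lowest). In endothelial nuclei they were Ccn1 in Primary Hepatocytes of mouse 4 (72), Axl in Primary Hepatocytes of mouse 8 (9.81), and Ankrd1 in Cell Suspension of mouse 8 (4.6) and Liver of mouse 5 (1.24), the Ankrd1 values resting on 2 and 3 UMIs in all. In stellate nuclei they were Yap1 (286) and Ccn2 (50.3) in Liver of mouse 8, Ccn2 in Cell Suspension of mouse 8 (78.1) and Ajuba in Cell Suspension of mouse 5 (60.4). In Kupffer nuclei they were Axl in Liver of mouse 6 (186, the lowest) and Wwtr1 in Liver of mouse 7 (56.6).

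The change from Liver to culture differed between endothelial nuclei and hepatocytes by the interaction test for 8 members. The endothelial minus the hepatocyte log2 change was -5.32 for Ccn2, -4.21 for Ankrd1, -2.45 for Ajuba, -1.68 for Axl, -1.49 for Amotl2, -1.25 for Tead1, -1.07 for Lats2 and -0.88 for Ccn1. The first 2 rest on very low hepatocyte levels in Liver. Before scaling, median Ccn2 went from 0.0885 to 30.4 CPM in hepatocytes and from 13.8 to 59.1 in endothelial nuclei. Median Ankrd1 went from 0.157 to 22.8 CPM and from 0 to 1.72. The Ccn1 difference was not called in 3 of 4 alternatives, nor that of Ankrd1 without the block. Hepatocyte markers in endothelial nuclei stood at medians of 2597 CPM in Liver and 2609 CPM in culture. This was 19.2% and 76.8% of their hepatocyte level, which itself fell from 13490 to 3396 CPM. The part of such RNA in these differences was not tested.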

How the results depend on the processing

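Of 1531 values of single members under the alternatives, 1423 kept their side of the threshold without a reversal, 35 newly passed it, 66 no longer did and 7 reversed. Direction was compared only where the member was called in the main fit or in the alternative. In cultured hepatocytes over Liver, Yap1 reversed when scaled by total UMIs (0.19) and in spliced UMIs (0.11), and Axl in spliced UMIs (-1.24). Over Cell Suspension, Yap1 reversed when scaled by total UMIs (0.46) and in spliced UMIs (0.3). Lats2 reversed in spliced UMIs in hepatocytes, Cell Suspension over Liver (0.11), and in endothelial nuclei, culture over Cell Suspension (0.14). Members called in hepatocytes, Cell Suspension over Liver, went from 4 to 2 in spliced UMIs and to 2 in thinned sums. In endothelial nuclei, culture over Liver, they went from 5 to 3 in thinned sums. In endothelial nuclei, culture over Cell Suspension, they went from 4 to 2 with the mouse as a block, in spliced UMIs and in thinned sums. They went to 1 with the better assigned hashtags, which left few samples, and in unspliced UMIs. In unspliced UMIs Ccn2 was not tested, so its call was not lost by a test. In Kupffer nuclei they went from 2 to 1 with at least 20 nuclei per sample and with the block, and to 0 under edgeR's filterByExpr, which left Axl and Lats2 to be tested and kept neither Ccn1 nor Tead1, so that no call was lost by a test. Thinned sums, fewer nuclei and 1 splicing state hold fewer UMIs, and otherwise the cause was not tested.

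With 1 mouse left out, the members called ranged from 8 to 9 (culture over Liver), 3 to 5 (Cell Suspension over Liver) and 7 to 9 (culture over Cell Suspension) in hepatocytes, and from 4 to 6, 1 to 1 and 2 to 4 in endothelial nuclei. With the mouse as a replicate block, calls on levels changed for Axl, Wwtr1 and Ankrd1 in hepatocytes, for Amotl2 and Lats2 in endothelial and for Tead1 in Kupffer nuclei, and for no other member between sample types. Unspliced shares passed in 11 comparisons in place of 12 with ambiguous UMIs in the denominator and with at least 50 UMIs, in 8 when paired by mouse, and in 12 when adjusted over all genes. Depth limits Ccn2 and Ankrd1 in Liver and Cell Suspension, Axl in hepatocytes and all members in Kupffer and stellate nuclei outside Liver.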

Other observations

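Ankrd1 was most concentrated in a small cluster that the report's comparisons do not use. The authors' cluster 30, named biliary and carrying the biliary markers Spp1 and Bicc1 among its 10 leading genes, is itself led by Ankrd1. It held 7 Ankrd1 UMIs of 176053 in 63 Liver nuclei, 236 of 98111 in 41 Cell Suspension nuclei and 92 of 76443 in 23 nuclei of Primary Hepatocytes, and 147 of the 236 came from 1 sample. Ccn1 had 3, 100 and 46 UMIs in the same nuclei. The authors' cluster 28, also named biliary, had more of the mesothelial (6065 CPM) than of the biliary markers (3906 CPM), and 157 of its 158 nuclei were from Liver. Pooled over these nuclei, Tead1 was at 974 CPM, Lats2 at 390, Wwtr1 at 306, Amotl2 at 259 and Ccn1 at 158, while Ankrd1 had 0 of 525708 UMIs, which allows up to 5.71 CPM by counting error. No test between sample types was made.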
